A study of Mus musculus with 6 samples.

Results

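Broad H3K27ac domains are here long stretches of chromatin under regions called, in either replicate, for histone H3 acetylated at lysine 27. They were chosen by length alone: the overlapping or touching regions of both H3K27ac replicate lists were joined, and every joined region of 10000 bp or longer was kept. Of 52540 joined regions, 824 (1.57%) passed. Because length was the basis of the selection, lengths and the coverage in each H3K27ac replicate are given below as a description, with no test. The domains held 12.9 Mb of the 108 Mb under joined regions (11.9%) and 0.473% of the chromosome bases of the mouse genome (build GRCm38, also named mm10).

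The series profiled nuclei isolated from gastrocnemius and quadriceps, the large muscles of calf and thigh, of wild-type (WT) mice 2 months old, by ChIP-seq with an antibody against H3K27ac or against the transcription factor Maf. Each antibody had 2 biological replicates, and all 4 lists are of untreated WT muscle, so that no treatment or genotype is compared. The labels do not say whether a replicate was 1 animal or a pool. The 2 input samples, chromatin without antibody, were not analysed here. The lists give positions of called regions and no read counts, so the sequencing depth behind them is unknown.

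As background, H3K27ac is placed by the acetyltransferases p300 and CBP and is found at active promoters and enhancers. Most regions that carry it are short, a few nucleosomes wide. Long stretches arise where many active elements stand next to each other or where acetylation runs from a promoter into the gene body, and in many tissues such stretches lie at genes that give the cell its identity. Maf is a basic leucine zipper factor whose classical recognition element carries the core TGCTGA, usually followed by C.

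Maf peaks that were called in both Maf lists and lay in a domain are shown first, since only 5 exist. The list of Maf replicate 1 holds 74 peaks and that of replicate 2 holds 5467, so almost every Maf position below comes from replicate 2. Each sequence is the 281 bp interval of the replicate 2 list on the plus strand of GRCm38, taken from the RefSeq genome. Capitals mark the Maf core TGCTGA on either strand.
Rcsd1 domain, intron of Rcsd1, chr1:165667463-165667743: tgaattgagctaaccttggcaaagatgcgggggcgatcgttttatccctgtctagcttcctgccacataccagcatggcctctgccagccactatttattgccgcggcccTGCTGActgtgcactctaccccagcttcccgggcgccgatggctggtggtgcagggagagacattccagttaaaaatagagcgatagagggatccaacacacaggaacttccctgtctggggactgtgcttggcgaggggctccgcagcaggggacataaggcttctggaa
Tmem233 domain, between genes, 12152 bp from a start of Prkab1, chr5:116036520-116036800: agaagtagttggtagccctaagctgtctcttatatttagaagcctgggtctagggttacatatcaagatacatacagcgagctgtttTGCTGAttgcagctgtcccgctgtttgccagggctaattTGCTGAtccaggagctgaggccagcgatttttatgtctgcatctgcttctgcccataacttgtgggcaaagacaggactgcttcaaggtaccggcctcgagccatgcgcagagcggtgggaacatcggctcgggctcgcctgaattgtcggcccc
Vasn domain, intron of Coro7 and Vasn, chr16:4643629-4643909: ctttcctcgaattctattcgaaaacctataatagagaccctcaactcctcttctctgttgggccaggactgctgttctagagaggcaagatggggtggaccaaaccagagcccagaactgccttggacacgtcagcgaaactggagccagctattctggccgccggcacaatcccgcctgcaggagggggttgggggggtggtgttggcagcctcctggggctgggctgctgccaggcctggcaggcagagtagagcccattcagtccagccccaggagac
Pkdcc domain, intron of Pkdcc, chr17:83221230-83221510: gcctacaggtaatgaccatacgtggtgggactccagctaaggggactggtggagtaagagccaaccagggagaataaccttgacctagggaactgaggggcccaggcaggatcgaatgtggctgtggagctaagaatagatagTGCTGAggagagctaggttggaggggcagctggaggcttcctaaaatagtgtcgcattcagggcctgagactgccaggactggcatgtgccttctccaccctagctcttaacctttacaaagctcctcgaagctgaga
Chd2 domain, intron of Chd2, chr7:73521734-73522014: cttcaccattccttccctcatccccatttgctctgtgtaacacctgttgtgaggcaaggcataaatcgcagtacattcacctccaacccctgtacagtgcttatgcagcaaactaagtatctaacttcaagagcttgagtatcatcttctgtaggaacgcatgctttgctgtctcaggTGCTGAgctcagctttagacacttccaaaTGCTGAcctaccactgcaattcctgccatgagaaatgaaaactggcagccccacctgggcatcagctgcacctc

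Of these, 4 held the core, 2 of them more than 1 time, and the Vasn peak held none. The full TGCTGAC was in the Rcsd1 and Chd2 peaks. The Tmem233 domain contains the first peak of the whole Maf replicate 1 list, which is also the sixth of the replicate 2 list.

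A second set shows Maf peaks just upstream of 3 genes that the study names for Maf binding and that lie in a domain, again on the plus strand of GRCm38 with the core in capitals. Myh4 encodes the myosin heavy chain of fast type IIb fibers, Atp2a1 the fast calcium pump SERCA1 and Ckm the muscle creatine kinase. All 3 intervals lie between genes, in the kilobase before the start.
Myh4 domain, 278 bp from the Myh4 start, chr11:67237611-67237891: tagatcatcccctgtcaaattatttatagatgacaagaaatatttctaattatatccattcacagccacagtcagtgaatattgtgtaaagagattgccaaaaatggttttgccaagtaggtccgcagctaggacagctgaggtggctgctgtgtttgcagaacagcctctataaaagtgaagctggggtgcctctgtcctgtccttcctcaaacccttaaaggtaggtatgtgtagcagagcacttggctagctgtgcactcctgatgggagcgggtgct
Atp2a1 domain, 790 bp from the Atp2a1 start, chr7:126463758-126464038: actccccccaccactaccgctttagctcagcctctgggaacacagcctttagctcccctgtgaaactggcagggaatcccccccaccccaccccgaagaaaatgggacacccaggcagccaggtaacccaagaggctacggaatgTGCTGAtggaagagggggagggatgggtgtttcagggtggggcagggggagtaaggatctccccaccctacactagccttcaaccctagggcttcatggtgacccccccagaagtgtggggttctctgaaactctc
Ckm domain, 157 bp from the Ckm start, chr7:19410728-19411008: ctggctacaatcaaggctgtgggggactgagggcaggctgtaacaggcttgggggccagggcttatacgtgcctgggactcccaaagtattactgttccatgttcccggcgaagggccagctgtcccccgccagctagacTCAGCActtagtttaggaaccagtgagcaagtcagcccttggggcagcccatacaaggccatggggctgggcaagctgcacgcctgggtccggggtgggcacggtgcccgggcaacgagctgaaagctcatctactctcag

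The Atp2a1 and Ckm peaks each held 1 core and the Myh4 peak held none. None of these intervals was in the list of Maf replicate 1. A nearer Maf peak at Atp2a1, at place 13 of the replicate 2 list, held TGCTGAC and is not shown because it runs past the start into the transcript.

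The domains ranged from 10002 to 75980 bp, with a median of 13271 bp and quartiles of 11322.5 and 17627 bp. The median of all joined regions was 1446 bp. Only 313 domains reached 15 kb, 146 reached 20 kb, 33 reached 30 kb, 13 reached 40 kb and 3 reached 60 kb. At the limit, the shortest domains were at Pik3ip1 (10002 bp), in Fxr1 (10011 bp) and at Gsk3b (10013 bp), while regions just under it included those in Jph1 (9995 bp) and at Csnk1g2 (9987 bp). The limit therefore separates regions of nearly equal length.

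Both H3K27ac lists contributed to every domain. The replicate 1 list had 44887 regions, 615 of them 10 kb or longer, and the replicate 2 list had 44987, 681 of them that long. A single region of at least 10 kb in both replicates underlay 507 domains (61.5%), while 100 had one in replicate 1 only, 167 in replicate 2 only, and 50 reached the limit only after joining. No domain lacked a region in either replicate, and 402 were made of exactly 1 region of each. Of all domain bases, 94.2% were covered in replicate 1, 96.6% in replicate 2 and 90.9% in both. In joined regions of 5 to 10 kb 86.2% of the bases were in both lists, and in all regions under 10 kb 69.5%.

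**Figure D1:**
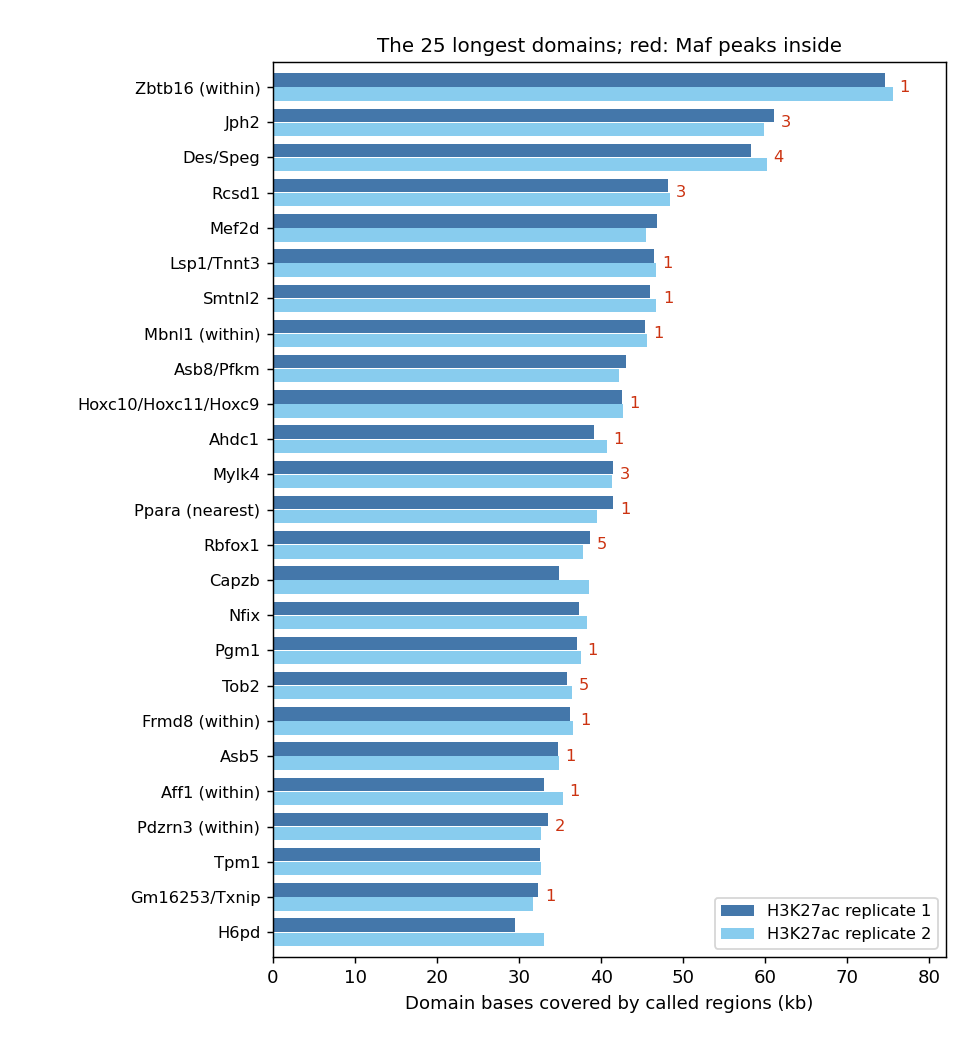
Bases covered by called H3K27ac regions (kb, horizontal axis) in replicate 1 (dark) and replicate 2 (light) for the 25 longest domains, named by the genes that start in them, or by the gene they lie within or nearest to; red digits count Maf peaks. The paired bars are close to each other throughout, from 75519 bp in replicate 2 at Zbtb16 down to 29453 bp in replicate 1 at H6pd.

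The longest domain lay inside Zbtb16, which encodes the zinc finger factor PLZF, and contained no transcript start (chr9:48705252-48781231). It measured 75980 bp, of which 74648 bp were covered in replicate 1 and 75519 bp in replicate 2. Its nearest start, that of Zbtb16 itself, was 54714 bp away. A further pair of domains followed within 50 kb in the same gene, and the 3 together covered 114 kb of a 125 kb span, the largest such cover found.

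The next longest domain covered Jph2, which encodes junctophilin 2, a protein that ties the plasma membrane to the sarcoplasmic reticulum (chr2:163339001-163400995). Its 61995 bp took in 95.5% of the gene body, with 61117 bp covered in replicate 1 and 59808 bp in replicate 2. It held 3 Maf peaks, all inside the gene, centred 10.8, 18.5 and 44.2 kb downstream of the 5′ end.

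The third domain spanned neighbours of related function: Des, the intermediate filament protein desmin, and Speg, a kinase of the triad (chr1:75354407-75414925). Of its 60519 bp, replicate 1 covered 58202 bp in 3 regions and replicate 2 covered 60212 bp in 1. Des lay wholly inside, 69.5% of Speg was covered, and the 4 Maf peaks fell 1154 to 6610 bp from the nearest start.

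Rcsd1, which encodes the actin capping protein regulator CapZIP, followed with 48334 bp, of which 48091 and 48334 bp were covered in replicates 1 and 2. Its 3 Maf peaks include the both-list peak shown above. A domain at Capzb, a subunit of the capping protein itself, was 38460 bp long and held no Maf peak. Replicate 1 covered 34908 bp of it in 4 regions and replicate 2 all of it in 1.

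Transcription and RNA processing factors made up another part of the longest domains. Mef2d, a factor that drives muscle gene transcription, lay wholly inside a domain of 47661 bp with 46789 bp in replicate 1 and 45484 bp in replicate 2, and held no Maf peak. Mbnl1, a splicing factor of muscle, had a domain of 46147 bp within its body. Rbfox1, another splicing factor of muscle and brain, had 38628 bp around a start internal to a very long gene, and 5 Maf peaks, the highest number in any domain together with Tob2. Nfix, a nuclear factor I gene, had 38318 bp, covered over 37269 bp in replicate 1 and entirely in replicate 2.

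Fast troponin T (Tnnt3) lay wholly inside a domain of 47650 bp that it shared with Lsp1, covered over 46424 bp in replicate 1 and 46630 bp in replicate 2. Mylk4, a myosin light chain kinase family gene, had 41707 bp, with 41497 and 41368 bp covered in replicates 1 and 2. Its 3 Maf peaks stood upstream of the 5′ end, by 2.43, 8.19 and 12.9 kb. Tropomyosin 1 (Tpm1) had 33453 bp and no Maf peak, so the sarcomere genes among the longest domains differed in whether Maf was called there.

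Metabolic genes were Pfkm, the muscle phosphofructokinase, with 42998 bp shared with Asb8 (42998 and 42113 bp in replicates 1 and 2), Pgm1, a phosphoglucomutase, with 37512 bp (36995 and 37512 bp), and H6pd, which makes NADPH in the reticulum, with 33257 bp (29453 and 33077 bp). Pfkm and H6pd had no Maf peak in their domains, and Pgm1 had 1, centred 0.938 kb downstream of its 5′ end. Txnip, an inhibitor of thioredoxin that responds to glucose, sat wholly inside 33271 bp.

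The remaining domains among the 25 longest lay at Smtnl2 (46896 bp), Hoxc9, Hoxc10 and Hoxc11 (42772 bp), Ahdc1 (42236 bp), Tob2 (36628 bp, 5 Maf peaks, reaching over Tef), Asb5 (35708 bp), and within Aff1 (35305 bp) and Pdzrn3 (33937 bp). The Hoxc domain, over genes that set limb position, also overlapped the noncoding gene Hotair. A domain of 41690 bp had no protein-coding gene and lay 42763 bp from the nearest start, that of Ppara, a fatty acid sensing nuclear receptor, and overlapped the noncoding gene Lncppara. A domain of 36598 bp reached into Frmd8 and overlapped the noncoding gene Neat1, and a neighbour of 24139 bp overlapped Malat1, so that both long nuclear RNAs of this locus lay under broad acetylation.

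Of the domains, 528 contained a start of a protein-coding transcript (64.1%, 95% interval 60.7 to 67.4, Clopper-Pearson). A further 233 (28.3%) lay over a gene body without a start and 63 (7.65%) between genes. In regions of 5 to 10 kb 46.3% had a start, and in all shorter regions 21.4%. A longer interval has more room for a start, and no correction for length was made. Starts of 1 gene were found in 461 domains, of 2 genes in 59 and of 3 genes in 8. Of the domain bases 72.3% were intronic, against 56.6% in shorter regions and 34.2% on the chromosomes as a whole.

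The domains reached mostly into the gene. Among 365 domains with the 5′ end of exactly 1 gene, the median reach was 10.8 kb downstream and 1.94 kb upstream. More of the domain lay downstream than upstream in 319 (87.4%). Only 3 had 90% or more of their length upstream, at Cdc42bpg (10.6 kb upstream), Gm973 (14.8 kb) and Slc41a3 (10.4 kb). Of the 593 genes with a start in a domain, 121 (20.4%) lay wholly inside domains, and the median gene had 42.6% of its body covered. Their median length was 28.2 kb, against 23.2 kb for genes with a start in shorter regions only and 16.6 kb for all protein-coding genes.

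**Figure D2:**
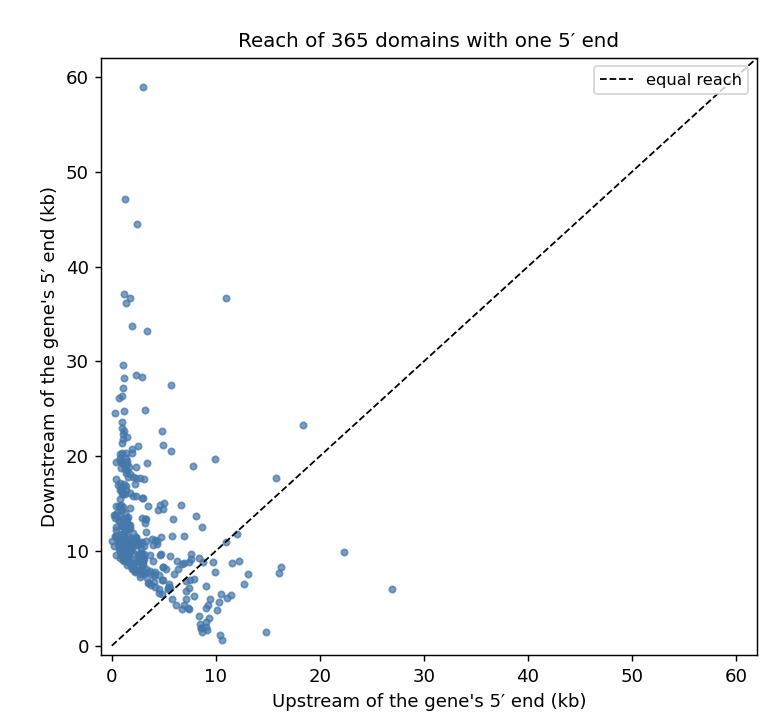
Distance that a domain extends upstream (horizontal axis, kb) and downstream (vertical axis, kb) of the 5′ end of the only gene whose 5′ end it contains; each point is 1 of 365 domains and the dashed line marks equal reach. Most points, 319, lie above the line, and Jph2 is the highest at 59.0 kb.

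The domains at the starts of 3 very long genes, picked after their values were seen, took in little of the gene. Titin (Ttn) had a domain of 12885 bp that took in 3.21% of its gene, nebulin (Neb) had 10126 bp and 5.01%, and dystrophin (Dmd) had 12320 bp and 0.511%. Ckm, Atp2a1 and skeletal alpha-actin (Acta1), which are much shorter genes, were each covered over 100% of their length.

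Of 21827 protein-coding genes, 593 (2.72%) had a transcript start in a domain. This share is the background for the gene lists below, which were described by counts with no set test. The lists hold well studied muscle genes, 56.0% of all protein-coding genes had a start in any H3K27ac region, and among those 4.85% had it in a domain.

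**Figure D3:**
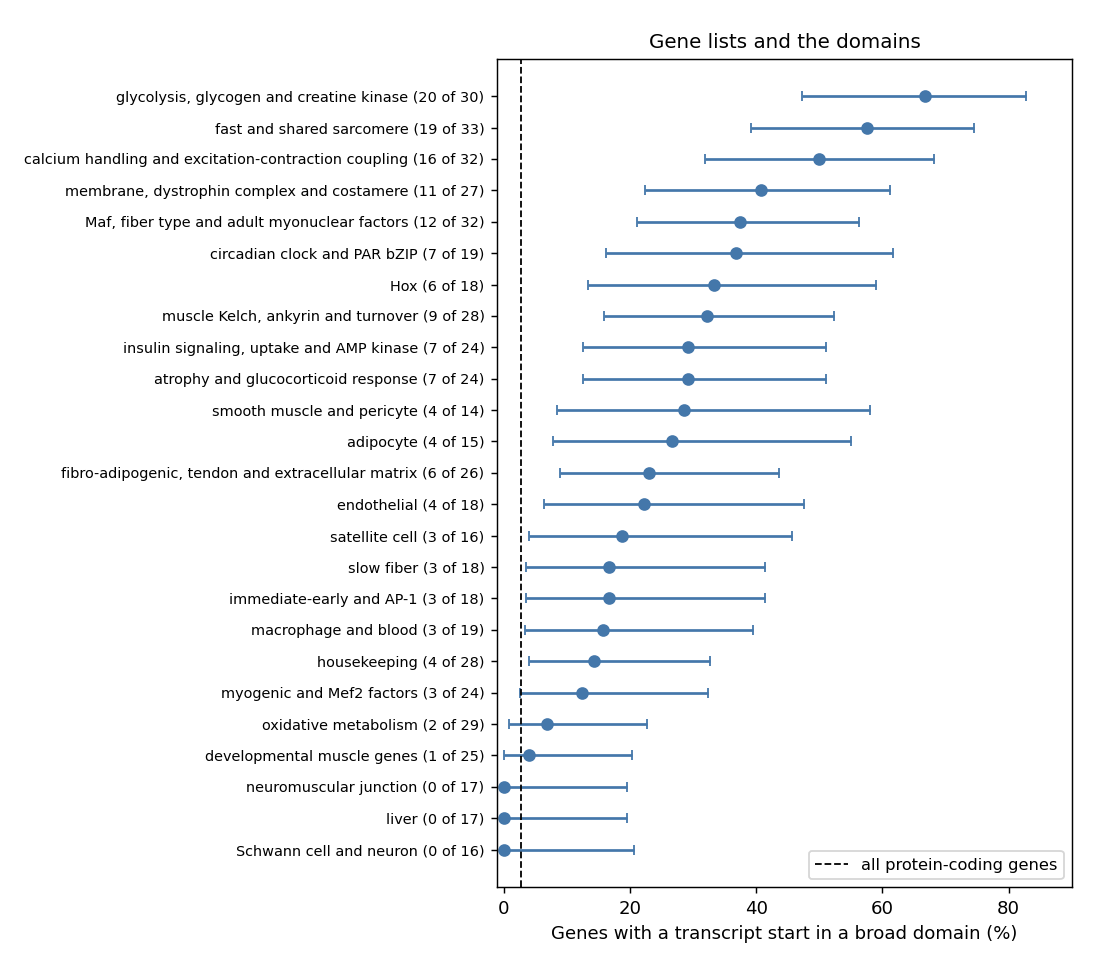
Percentage of the genes of each list with a transcript start in a broad domain (points) with 95% Clopper-Pearson intervals (bars) for lists of more than 10 genes; the dashed line marks the 2.72% of all protein-coding genes. Glycolysis (20 of 30), fast sarcomere (19 of 33) and calcium handling (16 of 32) are highest, and 3 lists are at 0.

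Glycolysis, glycogen and creatine kinase genes, which supply fast fibers with ATP without oxygen, had the highest share, 20 of 30 (66.7%), and 17 of these 20 genes lay in a domain with a Maf peak. Among all domains with a start 40.7% held one, and the share was higher among longer domains. The counts of the lists were not adjusted for length. Hexokinase 2 (Hk2) had 30657 bp, with 29296 bp in replicate 1 and 30657 bp in replicate 2, and 1 Maf peak centred 23.2 kb downstream of its 5′ end. Glucose-6-phosphate isomerase (Gpi1) had 24.6 kb, pyruvate kinase (Pkm) 23.8 kb and the muscle enolase Eno3 20.3 kb, each with 1 Maf peak. Glycogen phosphorylase (Pygm) had 20.3 kb with 1 Maf peak and glycogen synthase (Gys1) 17.1 kb with none. Ampd1, the AMP deaminase of muscle, had 3 Maf peaks in 19.3 kb, and Ckm 1 in 16.6 kb. Ldha, Gapdh and Pgam2 were among the 10 with a start in shorter regions only.

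Fast and shared sarcomere genes had 19 of 33 (57.6%), and 11 of these 19 had a Maf peak in the domain. Beyond Tnnt3, Mylk4 and Tpm1, the fast myosin gene Myh4 had 23.8 kb, of which 23818 bp were covered in replicate 1 and 22386 bp in replicate 2, with the Maf peak shown above just upstream. M-band proteins Myom2 and Myom1 had 22.2 and 21.5 kb, and the Z-disc protein Myoz1 shared 21.8 kb with Synpo2l. The light chain Myl1 had 17.3 kb with 3 Maf peaks, centred 0.31 kb upstream and 4.99 and 6.05 kb downstream of the 5′ end. Myh1 and Myh2, the myosins of types IIx and IIa, and Actn3 and Mybpc2 had starts in shorter regions only. The region at Actn3 measured 8.25 kb and that at Mybpc2 9.46 kb, just under the limit, with 2 Maf peaks each.

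Calcium handling and excitation-contraction coupling genes had 16 of 32 (50%), 10 of them with a Maf peak. After Jph2 came sarcalumenin (Srl) with 31.0 kb, the T-tubule protein Bin1 with 27.3 kb and Atp2a1 with 26.3 kb. At Atp2a1, replicate 1 covered 26169 bp and replicate 2 covered 24958 bp, and the 2 Maf peaks were centred 0.122 and 0.79 kb upstream. The calcium buffer parvalbumin (Pvalb) had 21.7 kb without a Maf peak, and triadin (Trdn) 21.6 kb with 2. The sodium channel Scn4a and the voltage sensor Cacna1s each had 3 Maf peaks, in domains of 20.4 and 18.2 kb. The Scn4a domain reached mostly upstream, over Prr29, where its Maf peaks were centred 13.6, 14.7 and 17.2 kb from the 5′ end. A separate domain of 22682 bp inside Scn4a held 2 more. The release channel Ryr1 had 13.5 kb with 1 Maf peak, and sarcolipin (Sln) had a start in no region at all.

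**Figure D4:**
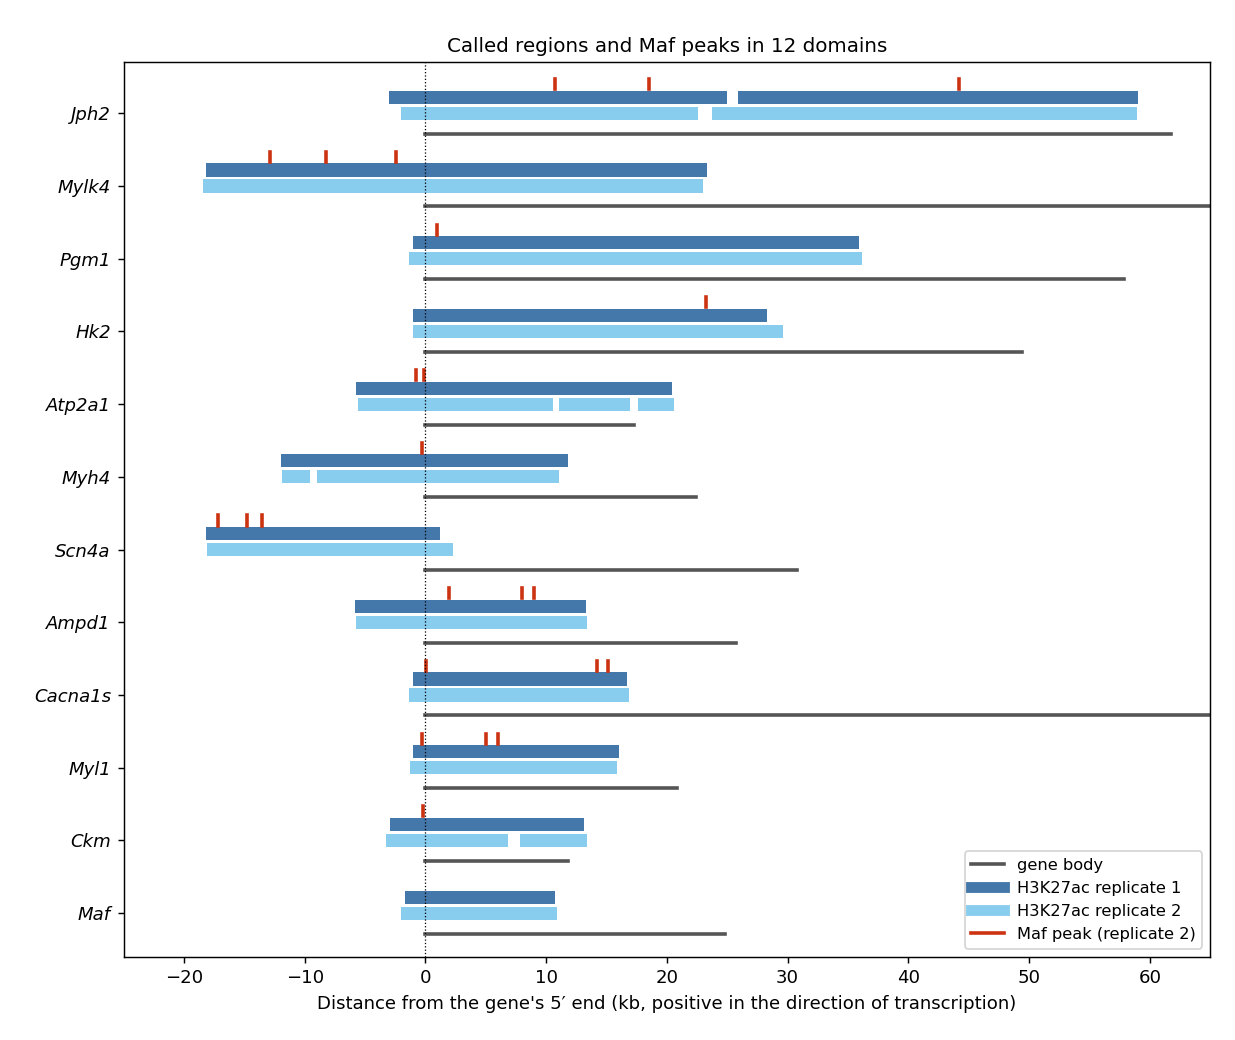
Called regions of H3K27ac replicate 1 (dark bars) and replicate 2 (light bars), Maf peaks of replicate 2 (red ticks) and the gene body (grey line, drawn up to 65 kb) in 12 domains, by distance from the gene's 5′ end in kb. Regions extend mainly downstream except at Scn4a, Myh4 and Mylk4. Both sides are nearly equal at Myh4, and the Mylk4 domain reaches 18.4 kb upstream and 23.3 kb downstream. The 3 ticks of Mylk4 and of Scn4a stand upstream, and Maf itself has no tick.

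Membrane, dystrophin complex and costamere genes had 11 of 27 (40.7%), led by Fhl3 with 26967 bp, Synpo2l with 21.8 kb and lamin A (Lmna) with 18.5 kb. The sarcoglycan and dystrobrevin genes Sgca, Sgcb, Sgcd and Dtna, had starts in shorter regions only. Kelch, ankyrin and turnover genes had 9 of 28 (32.1%), 8 of them with a Maf peak, among them Des, Asb5, Bag3 (23.3 kb, no Maf peak) and Ky (20.7 kb). Insulin signaling and AMP kinase genes had 7 of 24 (29.2%), with the kinase subunits Prkaa2 (20.1 kb, 2 Maf peaks) and Prkag3 (16.7 kb, 1 Maf peak) the longest. The glucose transporter Slc2a4 was in shorter regions only.

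The list of Maf, fiber type and myonuclear factors had 12 of 32 (37.5%), 4 with a Maf peak. They included the thyroid hormone receptor Thra (18.8 kb), Nfatc1 (15.1 kb) and the nuclear factor I genes. The latter were Nfix, Nfic (32.1 kb), Nfib (21.2 kb) and Nfia (15.7 kb), all of which the study names at the neonatal stage. Maf itself had a domain of 12876 bp, covered over 12390 bp in replicate 1 and entirely in replicate 2, without a Maf peak. Nr4a1 had 14264 bp and Tef 14121 bp, also without one. Of the other factors the study names in adult muscle, Thrb had at most 4.11 kb and Esr1 5.31 kb. The longest regions at 3 of its developmental factors were 2.25 kb at Myog, 2.40 kb at Klf5 and 2.37 kb at Tead4, so none of these 3 was in a domain. The developmental list as a whole had 1 of 25 (4%), Elk3 with 21.2 kb, and 15 of its genes, such as Myh3, Myh8 and Chrng, had a start in no region.

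Myogenic and Mef2 factors had 3 of 24, among them Mef2d and Myf6 (13.9 kb), and Myod1, Mef2a and Mef2c were in shorter regions only. Circadian clock genes had 7 of 19 (36.8%), led by Bhlhe41 (18.1 kb) and Nr1d1 (16.2 kb), with Per1 (14.3 kb) and Cry2 (14.2 kb), while Arntl and Clock were in shorter regions. Atrophy and glucocorticoid response genes had 7 of 24 (29.2%), among them Klf9 (21.3 kb) and the ubiquitin ligases Fbxo32 (19.9 kb) and Trim63 (17.5 kb), none of these 3 with a Maf peak. Time of day and feeding of the animals are not given in the labels, and their part in these counts was not tested.

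Oxidative metabolism genes had 2 of 29 (6.90%), Idh3a (14.1 kb) and citrate synthase (Cs, 11.7 kb), although all 29 had a start in an H3K27ac region. The housekeeping list had 4 of 28 (14.3%), namely Actb (17.4 kb), Eef1a2, Pgk1 and Rab7. Pgk1 is also counted in the glycolysis list, and Eef1a1, the other Eef1a gene listed, had a start in shorter regions only. Slow fiber genes had 3 of 18 (16.7%), Fhl1, Mb and Cd36, of 10.2 to 13.5 kb and without a Maf peak, and 7 of them, among them Myh7 and Tnnt1, were in no region. Immediate-early genes had 3 of 18 (16.7%), Nr4a1, Klf6 and Fosl2. Hox genes had 6 of 18 (33.3%), but these come from only 2 domains, that of Hoxc9 to Hoxc11 and one of 25.1 kb over Hoxa7, Hoxa9 and Hoxa10, each with 1 Maf peak.

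Whole muscle nuclei also come from other cell types, and the domains held some of their genes. Endothelial markers had 4 of 18 (22.2%), Egfl7 (21.9 kb), Erg (15.7 kb), Ptprb and Sox18, none with a Maf peak. Fibro-adipogenic and matrix markers had 6 of 26 (23.1%), of 10.0 to 12.1 kb and among them the mesenchymal factor Osr1 and the matrix genes Dcn, Sparc and Col6a1. Of these 6, only Timp2 had a Maf peak in its domain. Smooth muscle and pericyte markers had 4 of 14 (28.6%) with Pdgfrb the longest of those not shared with muscle at 19.5 kb, adipocyte markers 4 of 15 (26.7%; Pnpla2, Plin4, Acsl1 and Car3, none with a Maf peak) and satellite cell markers 3 of 16 (18.8%). The adipocyte genes Adipoq, Lep, Cidea, Ucp1 and Retn had a start in no region. The macrophage markers C1qa, C1qb and C1qc shared 1 domain of 15.7 kb, which makes 3 of 19 (15.8%). That domain held 1 Maf peak, centred 63 bp from a start. Neuromuscular junction (0 of 17), Schwann cell and neuron (0 of 16) and liver genes (0 of 17) had none, which allows shares of up to 19.5%, 20.6% and 19.5% by the exact interval, and no liver gene was in any region. Des and Itga7, in the satellite cell list, and Pnpla2, Acsl1 and Car3, in the adipocyte list, are also expressed in fibers, and the part of other cell types in any domain was not tested.

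A Maf peak lay in 336 domains (40.8%, 95% interval 37.4 to 44.2) and 448 Maf peaks lay in domains, all in the replicate 2 list and 5 also in replicate 1. Of the domains, 488 held none, 245 held 1, 75 held 2, 13 held 3, 1 held 4 and 2 held 5. Those with 3 or more, besides the domains already described, lay near Clec2d (27668 bp, between genes), at Mylk2, a myosin light chain kinase, and Lrrfip1, and within Ppp1r12b, Gpt2, an alanine aminotransferase, and Sox6, a repressor of slow fiber genes. At Mylk2, replicate 1 covered 20675 bp and replicate 2 covered 19142 bp.

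The share with a Maf peak rose with length, from 1.61% of regions under 1 kb through 21.2% at 5 to 10 kb and 32.5% at 10 to 15 kb to 75.8% at 30 kb or more. Per length, no difference was detected between domains and other regions. There were 3.47 peaks per 100 kb (95% interval 3.16 to 3.81) in domains, 3.43 (3.16 to 3.71) in regions of 5 to 10 kb and 3.51 (3.39 to 3.63) in all regions under 10 kb. The ratio of domains to shorter regions was 0.989 (95% interval 0.894 to 1.09, exact conditional binomial test, two-sided, adjusted p = 0.861), and that to regions of 5 to 10 kb was 1.01 (0.895 to 1.15, adjusted p = 0.861). These p-values treat peaks as independent and compare these lists, since regions and peaks are not replicates of an experiment. The result differed by which Maf peaks were taken: with only the 2733 peaks that stand first in the replicate 2 list, the same exact test gave ratios of 1.41 (adjusted p = 5.36e-09) and 1.20 (adjusted p = 0.00964), both higher in domains.

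**Figure D5:**
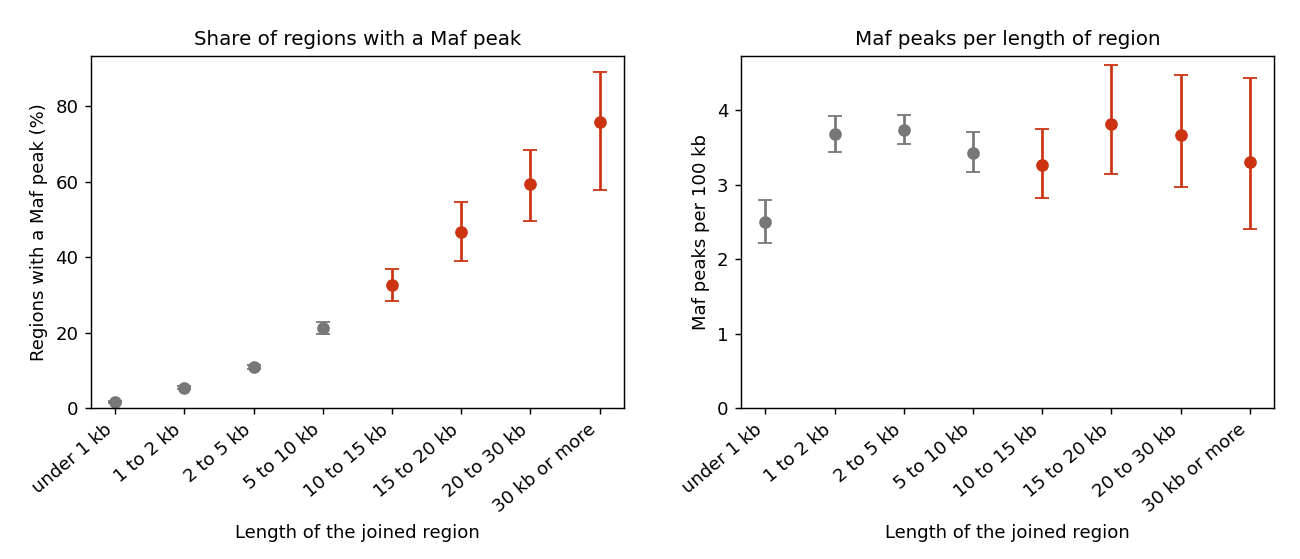
Percentage of joined regions with a Maf peak (left) and Maf peaks per 100 kb of region (right) by length class, with 95% intervals; broad domains are in red. The share climbs to 75.8% in the longest class, while the density stays between 3.26 and 3.82 per 100 kb in the classes of 10 kb or more and is lowest, 2.50, under 1 kb.

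Maf peaks in domains stood earlier in the replicate 2 list, whose order is not by position and whose meaning is not given in the sources used here. Their median place was at 22.6% of the list, against 41.3% for peaks in shorter regions and 76.5% for peaks in no region. Of the first 50 Maf peaks, 13 (26%) were in domains, of the first 500, 107 (21.4%), and of all 5467, 448 (8.19%). The Tob2 domain held places 382, 685, 926, 1013 and 2377, and the Rbfox1 domain 170, 347, 386, 928 and 1099.

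Domains between genes had a Maf peak in 37 of 63 (58.7%, 45.6 to 71.0) and 5.81 peaks per 100 kb, against 40.7% and 3.38 in domains with a start and 36.1% and 3.11 in those within gene bodies. The difference was not tested. A domain of 19606 bp of this class lay 30512 bp from the start of Myh3, in the fast myosin cluster, held 2 Maf peaks and overlapped the noncoding gene 2310065F04Rik. Replicate 1 covered 19440 bp of it and replicate 2 covered 19377 bp. Another, of 21411 bp, overlapped the noncoding genes Carmn and Bvht and held no Maf peak.

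Within domains, 46.2% of Maf peaks were in the central 50% of the length, and 15.0% in the outermost 10% at either end. Of the Maf peaks in domains, 17.4% were within 1 kb of a transcript start, against 24.4% in shorter regions, and 44.4% were over 10 kb away. The median distance to a start went the other way, at 7784 bp in domains and 15251 bp in shorter regions.

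Sequence around the Maf peaks was searched over 200 bp, on both strands, for TGCTGA, for TGCTGAC, which contains it, and for other motifs. TGCTGAC was in 28.1% (95% interval 24.0 to 32.5) of Maf peaks in domains, 23.2% (21.8 to 24.7) in shorter regions and 14.5% (12.9 to 16.3) in no region. TGCTGA was in 57.1%, 49.4% and 37.1%. In the same order, CAGCTG was in 22.3%, 21.2% and 15.3%, and the Mef2 motif in 7.14%, 6.25% and 4.20%. Lower in domains than in shorter regions were TGANTCA (N is any base), at 10.3%, 13.6% and 10.6%, and GGGCGG, at 13.4%, 15.7% and 3.96%. TATAAA (8.48%, 8.64% and 14.1%) and CCAAT (21.0%, 21.1% and 22.3%) were nearly equal in domains and shorter regions. Over all bases, domains and shorter regions held 0.179 and 0.176 TGCTGAC per kb. The E-box CAGCTG stood at 0.642 and 0.658 per kb and the Mef2 motif at 0.169 and 0.181. GGGCGG, the GC box, was sparser in domains, at 0.457 against 0.679 per kb, and the observed over expected CpG ratio was lower, 0.273 against 0.351, at the same GC content (48.4% and 48.5%). Regions of 5 to 10 kb lay in between, with GGGCGG at 0.574 per kb and a CpG ratio of 0.312. No correction for length was made.

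Promoters, 250 bases before to 50 after the 5′ end of the gene in GRCm38, showed a related difference. Of 504 genes whose 5′ end lay in a domain, 42.7% had a CpG ratio under 0.6, against 27.3% of 11193 in shorter regions and 83.1% of 10130 in no region. The Mef2 motif was in 4.17% of promoters in a domain, 1.80% in shorter regions, 3.80% in no region and 2.78% of all promoters. A match is a sequence of letters and not a measured site.

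Of 1005 RefSeq miRNA hairpins, 27 (2.69%) lay in 21 domains, and some shared a seed, the bases 2 to 8 that pair with target RNAs. Seeds are in capitals and each sequence runs 5′ to 3′. Shown are 4 pairs that lie in domains and share a seed, and miR-126a-3p, a well known endothelial miRNA in the domain of its host gene Egfl7.
let-7b-5p: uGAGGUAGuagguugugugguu
let-7c-5p: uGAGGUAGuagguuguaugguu
miR-193a-3p: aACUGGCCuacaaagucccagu
miR-193b-3p: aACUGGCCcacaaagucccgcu
miR-196a-5p: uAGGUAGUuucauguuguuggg
miR-196b-5p: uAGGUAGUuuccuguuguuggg
miR-195a-5p: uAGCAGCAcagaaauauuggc
miR-497a-5p: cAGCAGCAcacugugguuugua
miR-126a-3p: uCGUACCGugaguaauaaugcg

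The 3p arms of let-7b and let-7c-2 also share a seed and are not shown. The pairs differed in whether 1 or 2 domains held them. The let-7b and let-7c-2 hairpins shared a domain of 12376 bp near Ppara, and those of miR-195a and miR-497a a domain of 15519 bp at Bcl6b and Slc16a13, both without a Maf peak. The miR-193a and miR-193b hairpins lay on separate chromosomes, in domains of 11182 and 10985 bp between genes that held 2 Maf peaks each. The miR-196a-2 and miR-196b hairpins lay in the Hoxc and Hoxa domains.

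The domains were unevenly spread. Chromosome 11 held 91, or 7.45 per 10 Mb, the highest density of any chromosome, X held 13 (0.760 per 10 Mb) and Y none. Per 100 genes, chromosome 18 held more, 5.89, than chromosome 11, 5.56. Another domain was within 50 kb of 250 domains, which formed 111 groups of at most 4. Gaps were as short as 73 bp, between domains at Pdp1 and Gm10604, and 183 bp, between domains of Gpt2, and 53 were under 5 kb, so that the number of domains depends on how gaps are treated. From Lyl1 to Nfix, 3 domains covered 86.5 kb of 103 kb, and at Tns1, which encodes tensin, 4 covered 78.4 kb of 119 kb.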

How the data were processed

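Nuclei of gastrocnemius and quadriceps were fixed in 4% formaldehyde and immunoprecipitated by the authors with an H3K27ac or a Maf antibody. The submitters' processing notes name bcl2fastq 2.17, FastQC, Bowtie2 2.3.2, Picard 2.10.3 and HOMER, with build mm10 (GRCm38). Apart from a false discovery rate limit stated for the Maf peaks, caller settings are not given in the sources used here. The deposited files are lists of called regions per sample, with positions and a score that is 1 in every row, so no height or read count was used. Maf peaks have a fixed length of 181 bp in replicate 1 and 281 bp in replicate 2.

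H3K27ac regions of both replicates were joined where they overlapped or touched, and those of 10000 bp or more were kept. A Maf peak or a transcript start (GENCODE vM21 basic) counted at 1 shared base. Promoter and peak sequences came from the RefSeq GRCm38.p6 genome and miRNAs from RefSeq. Shares have 95% Clopper-Pearson intervals, which, like those of densities, cover counting error only. Maf densities were compared by an exact conditional binomial test with Benjamini-Hochberg adjustment over 2 comparisons (Python 3.11.15, scipy 1.17.1). Scripts were tested on simulated data. Genes were named for the 25 longest domains, for the domains with most Maf peaks (16 with 3 or more, after a tie at 3), for up to 6 genes a list, longest first, and where the study names them; others were chosen after their values were seen. Domains, lists and tests were chosen with earlier results of these data known. Alternatives changed the joining, the length limit, the Maf overlap, the definition of a start and the lists used. The inputs were not analysed here. Some genes are not reported here.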

Additional observations from a re-analysis of the deposited data

How the results depend on the processing

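Of 61 alternative values, 29 kept their side of the threshold, or stayed within their interval or within 1.5 times of the count. The number of domains, 824, became 1098 when regions up to 1 kb apart were joined, 6876 with the much wider joining used for super-enhancers, 499 when only bases in both H3K27ac replicates counted, and 1323 and 313 with length limits of 8 and 15 kb. It was 615 to 681 without an H3K27ac replicate. The share of domains with a Maf peak was 29.3% with the wide joining, 44.3% with bases in both replicates, and 36.1% and 54.3% at 8 and 15 kb. Without a single list it was 0.607% to 43.6%, the lowest without Maf replicate 2. The share of genes with a start in a domain was 3.61% and 32.2% with the narrow and wide joining, 1.72% with bases in both replicates, 4.06% and 1.15% at 8 and 15 kb, 2.31% by 5′ ends and 3.66% by gene bodies. Without an H3K27ac replicate it was 2.01% to 2.3%. The share of domains with a start was 59.7% and 68.1% at 8 and 15 kb, 52.3% by 5′ ends and 73.2% with all gene types.

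The density ratio to all shorter regions, 0.989, was 1.05 at 15 kb and 1.05 for Maf peaks wholly inside. It was 1.01 by peak centre (an alternative chosen after seeing the data) and 1.41 with the earlier part of the Maf list. The ratio was lower, 0.934, when regions up to 1 kb apart were joined. With bases in both replicates it was 0.884 (interval 0.783 to 0.996, exact conditional binomial test, adjusted p = 0.0833). At 8 kb it was 0.989, and away from transcript starts 0.988. Without a single list it was 0.839 to 0.990. The ratio to regions of 5 to 10 kb, 1.01, was 0.993 with bases in both replicates, 0.993 away from transcript starts and 1.20 with the earlier part of the Maf list, and 0.415 to 1.05 without a single list. Only the earlier part of the Maf list gave an adjusted p under 0.05, and the cause was not tested. With a replicate block, pairing each H3K27ac list with the Maf list of the same number, the ratios were 0.907 and 0.939, with no test. The study's methods say that the chromatin of each sample was split between both antibodies, but no source says that equal numbers mark the same sample, and region lists hold no values to correlate. The smallness of Maf replicate 1 and the unknown depth limit every Maf count.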

Other observations

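The following domains ranked just below the 25 longest and were picked after their values were seen. Stat5b, a factor downstream of growth hormone, had 29151 bp, with 26981 bp covered in replicate 1 and 28348 bp in replicate 2, and 1 Maf peak. Mcl1, an inhibitor of apoptosis, had 29571 bp with 2 Maf peaks. Adcy9, an adenylate cyclase, had 28329 bp and Kmt2e, a chromatin protein, 32994 bp, neither with a Maf peak. Cltc, the clathrin heavy chain, had 31259 bp with 1 Maf peak, which is the first peak of the Maf replicate 2 list.

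On the X chromosome, where domains were sparse, 4 of the 13 lay in the neighbourhood of Tsc22d3, a glucocorticoid-induced gene. They covered 65.4 kb of a span of 88.1 kb, and the longest of them measured 28775 bp, with 27836 bp covered in replicate 1 and 28190 bp in replicate 2.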
